A study of Homo sapiens with 7 samples.

Results

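SETD7 peaks with FOXA1 in 22Rv1 only are SETD7 peaks of 22Rv1 cells that overlapped a FOXA1 peak of at least 1 library of that line. None of them overlapped a FOXA1 peak of LNCaP cells. The members were taken from the authors' SETD7 peak list on chromosomes 1 to 22 and X by overlap of 1 bp or more with FOXA1 peaks. Overlap was counted on the SETD7 peak, so a 22Rv1 FOXA1 peak at a member could itself reach an LNCaP peak. They numbered 3809 of 25363 SETD7 peaks, or 15% (95% Wilson interval 14.6 to 15.5). Another 809 SETD7 peaks had FOXA1 in both lines, 112 had it in LNCaP only, and 20633 overlapped no FOXA1 peak. Members were chosen by presence in the FOXA1 peak lists, so their list membership is given as a description. Every group held 1 library, so there was no spread between replicates and no difference between groups was tested. Intervals in brackets after a percentage are Wilson intervals and reflect counting error alone.

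SETD7 is a lysine methyltransferase that acts on histones and on other proteins, and the series title names FOXA1 as one of its substrates. FOXA1 is a forkhead pioneer factor of luminal prostate cells, which binds DNA in closed chromatin and opens it for other factors such as the androgen receptor. The lines 22Rv1, labelled CWR22-Rv1, and LNCaP are both established human prostate cancer lines that express the androgen receptor, the first grown out of a xenograft that had relapsed after castration and the second from a lymph node metastasis.

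Chromatin immunoprecipitation with sequencing was used throughout. The SETD7 library came from vehicle 22Rv1 cells (CST antibody). The 3 FOXA1 libraries of that line (ABCAM antibody) came from vehicle cells and from cells that stably express a control hairpin, shCTL (shNTC in the design text), or the hairpin shSETD7. LNCaP cells gave 3 FOXA1 libraries, treated for 4 hours with DMSO, the LSD1 inhibitor GSK2879552, or this inhibitor plus the SETD7 inhibitor PFI-2, as its title has it (its treatment field leaves PFI-2 optional). The vehicle agent in 22Rv1 is not named. All 65461 peak names of the FOXA1 list labelled vehicle carry the tag siNTC, and the name vehicle here follows the label alone. SETD7 was mapped in vehicle cells alone, so SETD7 occupancy and SETD7 protein in the hairpin cells were not analysed here. On chromosomes 1 to 22 and X the vehicle, shCTL and shSETD7 FOXA1 lists held 65093, 83633 and 63682 peaks and covered 18.5, 31.9 and 25.6 Mb. The LNCaP lists held 63866 to 83352 peaks. These lists do not give the depth of the libraries. Sites are given by hg19 position, 1-based, without gene names or sequence, since no hg19 annotation or genome was used here.

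Most of these sites were in the FOXA1 list of the cells with the SETD7 hairpin. Of the 3809 members, 3254 overlapped an shSETD7 peak, or 85.4% (84.3 to 86.5), against 15.4% of all SETD7 peaks. The shCTL list held 1277 of them, or 33.5% (32.0 to 35.0), against 7.68% of all SETD7 peaks. The vehicle list, from cells labelled like those of the SETD7 library, held 719, or 18.9% (17.7 to 20.2), against 5.63%. The order of the 3 lists was thus the same among members as among all SETD7 peaks, and the rule used these lists, so nothing is read from the comparison of members with all SETD7 peaks. The shSETD7 list was the shortest of the 3 and the shCTL list covered the most sequence. The part of list length or covered length in the order was not tested.

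By exact combination of lists, 2246 members were found in the shSETD7 list alone, or 59.0% (57.4 to 60.5), against 9.02% of all SETD7 peaks. The shCTL list alone held 373 (9.79%) and the vehicle list alone 128 (3.36%). Both hairpin lists without vehicle held 471 (12.4%), and all 3 lists held 379 (9.95%, 9.04 to 10.9, against 3.56% of all SETD7 peaks). The remaining combinations were small, with 158 members in vehicle and shSETD7 and 54 in vehicle and shCTL. These 54 (1.42%, against 0.56% of all SETD7 peaks) are the sites found in both lists of cells without the SETD7 hairpin and absent from the list of cells with it.

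SETD7 sites with FOXA1 in both lines had another make-up. Of those 809 peaks, 525 were in all 3 22Rv1 lists, or 64.9% (61.5 to 68.1), and 43 were in the shSETD7 list alone, or 5.32% (3.97 to 7.08). Their shares in the vehicle, shCTL and shSETD7 lists were 87.5%, 82.9% and 80.6%, so the 3 lists held them to a similar extent.

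FOXA1 sites of 22Rv1 that overlapped neither a SETD7 peak nor an LNCaP peak gave the second reference. The 3 FOXA1 lists were merged into sites for this purpose, and 73665 sites were of this kind. A list held a merged site when any of its peaks fell in it. It held a member only when its peak overlapped the SETD7 peak, so the units are unlike. The shSETD7 list held 47% of them, the shCTL list 53.3% and the vehicle list 38.1%. The shSETD7 list alone held 26.3%, the shCTL list alone 25.9%, the vehicle list alone 17.9%, and all 3 lists 8.52%. Both hairpin lists without vehicle held 9.7%, vehicle and shCTL 9.14%, and vehicle and shSETD7 2.57%. With this difference in counting, the members stood apart in the share found in the shSETD7 list alone. Their share in all 3 lists was within 1.5 points of the other sites (9.95% and 8.52%). The part of the counting in these shares was not tested. Merged 22Rv1 FOXA1 sites with an LNCaP peak and no SETD7 peak numbered 49758. All 3 lists held 35.3% of them and the shSETD7 list alone 3.96%. Sites shared with LNCaP thus differed in the same direction from 22Rv1-only sites away from SETD7 as well. The cause of the members' high share in the shSETD7 list was not tested. It was 76.6% outside chromosomes 1, 3, 7, 8 and 12, where the share in the shSETD7 list alone was 43.3% (40.4 to 46.2). With the higher-scoring 50% of every list the share in the shSETD7 list alone was 36.8%, that in the vehicle list also 36.8%, and that in all 3 lists 19.96%, so these values moved when the lower-scoring peaks of all lists were left out.

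**Figure D1:**
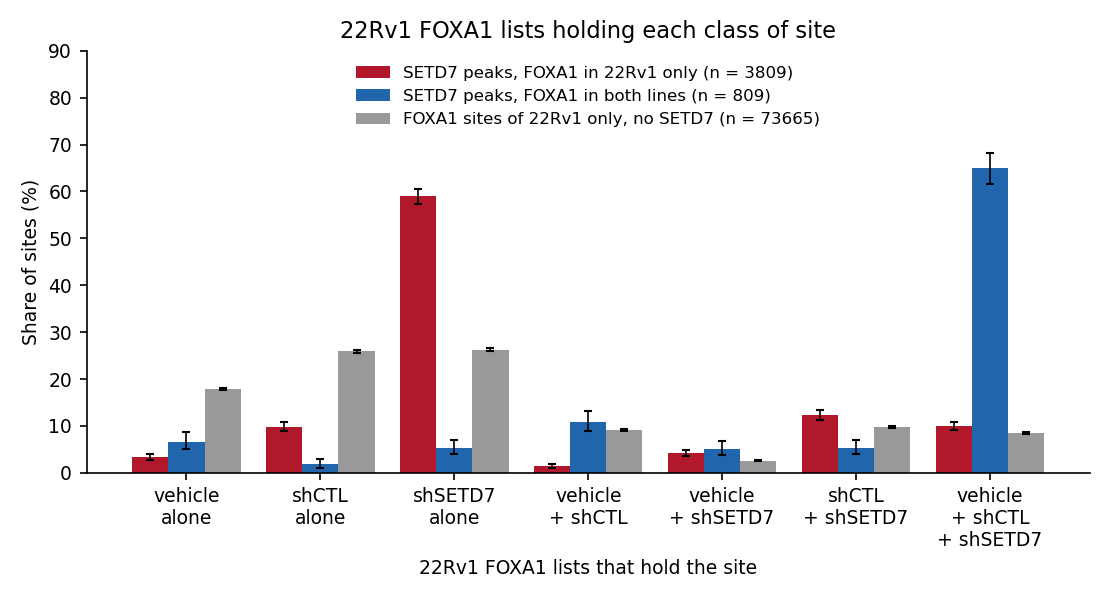
Share of sites (%) in each combination of the 3 22Rv1 FOXA1 lists, for 3809 SETD7 peaks with FOXA1 in 22Rv1 only, 809 with FOXA1 in both lines and 73665 merged 22Rv1-only FOXA1 sites without SETD7. Bars are shares and whiskers 95% Wilson intervals; the 22Rv1-only SETD7 sites peak at the shSETD7 list alone (59.0%) and the sites of both lines at all 3 lists (64.9%).

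The overlaps were also counted as shares of the FOXA1 peaks. Those without an LNCaP peak are largely the overlaps that define the members, so this count is a restatement and no separate support. Among FOXA1 peaks with no LNCaP peak, 8.35% of the shSETD7 peaks overlapped SETD7 (8.08 to 8.64), against 3.12% of the shCTL peaks (2.95 to 3.29) and 2.71% of the vehicle peaks (2.54 to 2.91). Among FOXA1 peaks that did overlap an LNCaP peak, the shares were 2.91%, 1.70% and 2.23%. The lists were therefore further apart at 22Rv1-only FOXA1 peaks than at peaks shared with LNCaP. In the shSETD7 list the share at SETD7 was 9.46% in the highest decile of FOXA1 scores without LNCaP (7.61 to 11.7, 782 peaks) and 9.15% in the lowest (8.42 to 9.95, 5473 peaks), intervals that overlap.

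SETD7 scores, the authors' own whole-number value for each peak, were then used to rank the SETD7 list into deciles. Tied scores were kept together, so the decile groups held between 1135 and 3794 peaks. Members made up 8.75% of the lowest decile (7.84 to 9.75, scores 13 to 17), 12.3% of the fifth (11.3 to 13.3), 17.5% of decile 9 (16.1 to 18.9, scores 43 to 57) and 36.8% of the highest (35.0 to 38.6, scores 58 and above). The share was thus higher in the upper deciles, with the widest step between deciles 9 and 10. SETD7 peaks with FOXA1 in both lines had no such gradient below the highest decile, at 1.24% to 2.19% in deciles 1 to 9 and 14.6% in decile 10. In all, 1006 members (26.4%) were in the highest decile. The median SETD7 score was 36 among members, 54 among sites of both lines and 25 among SETD7 peaks without FOXA1, in a list whose lowest score was 13.

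Which FOXA1 lists held the members also differed in the highest SETD7 decile. There 52.3% were in the shCTL list (49.2 to 55.4), against 26.8% of members in the lower deciles (25.2 to 28.5). The share in the shSETD7 list was 77.5% against 88.3%, and that in the shSETD7 list alone 40.7% (37.7 to 43.7) against 65.5% (63.8 to 67.3). The vehicle list differed little, with 20.2% (17.8 to 22.8) and 18.4%. Both hairpin lists without vehicle held 22.8% (20.3 to 25.5) against 8.63%. Members with strong SETD7 peaks were therefore more often in both hairpin lists without vehicle, while the vehicle shares differed by less than the counting interval.

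**Figure D2:**
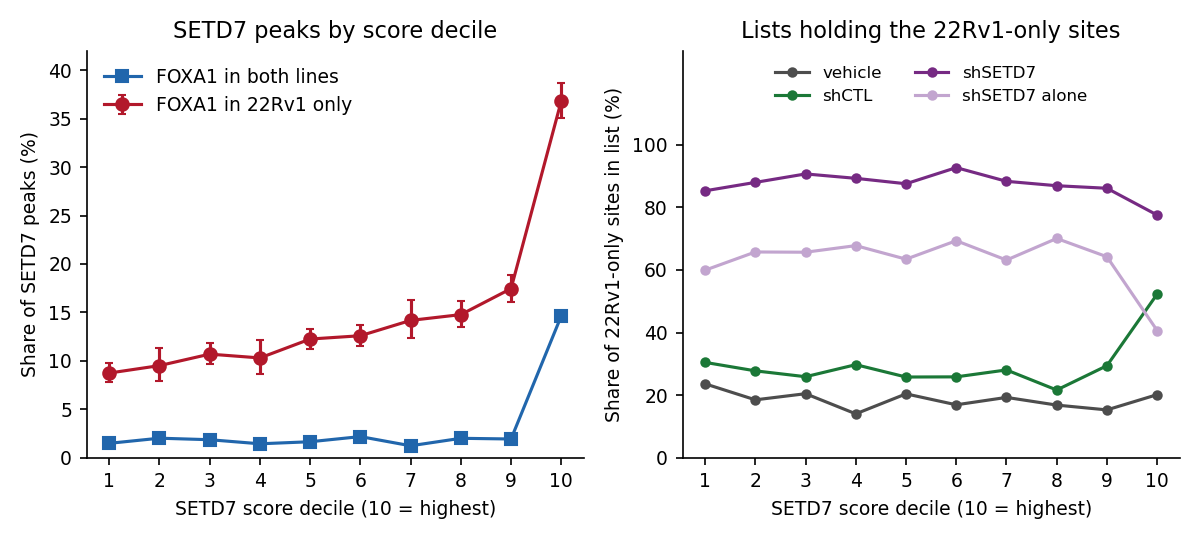
Left, share of SETD7 peaks (%) with FOXA1 in 22Rv1 only (95% Wilson intervals) or in both lines, by decile of the SETD7 score. Right, share of the 22Rv1-only sites (%) held by each 22Rv1 FOXA1 list; from decile 9 to decile 10 the shCTL share goes from 29.4% to 52.3% and the share in the shSETD7 list alone from 64.2% to 40.7%.

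At the top of the SETD7 scores most members were in the hairpin lists. Of the 127 members with a SETD7 score of 500 or more, the vehicle list held 24, the shCTL list 111 and the shSETD7 list 108, and 73 were in both hairpin lists without vehicle. The vehicle count is close to the 18.9% that this list held of all members. Of the 20 highest, with scores of 1833 and above, all were in the shSETD7 list, 17 in the shCTL list and none in the vehicle list. By contrast, the 100 highest-scoring SETD7 sites with FOXA1 in both lines were all in the vehicle list, and 97 each in the shCTL and shSETD7 lists. The 22Rv1-only rule removes sites with LNCaP peaks, and 58 of the 74 SETD7 peaks with a score of 2000 or more were sites of both lines.

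The member with the highest SETD7 score was chr13:87602856-87603157, with a SETD7 score of 12857. Its FOXA1 scores were 3008 in the shCTL list and 5797 in the shSETD7 list, and the nearest vehicle FOXA1 peak was 29846 bp away. The 3 peaks there began within 3 bp of each other, at 87602856, 87602857 and 87602859. Next came chr4:122448058-122448465 (SETD7 score 4100), with FOXA1 scores of 359 with shCTL and 659 with shSETD7. The third was chr15:47570956-47571540 (3153), with FOXA1 scores of 615 and 470 in the same order. These 3 sites show the pattern of the group, in which 9 of the 10 highest members were in both hairpin lists and 1 was in the shSETD7 list alone.

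Chromosome X and chromosome 11 held 2 each of these 10. They were chrX:64603445-64603955 (SETD7 score 3104), chrX:57411038-57411381 (2526), chr11:14779917-14780641 (3002) and chr11:14654077-14654637 (2572). The last of these had a vehicle FOXA1 peak 530 bp away, the closest among the 10. The others were chr3:109836427-109836755 (2611), chr1:99855116-99855739 (2288) and chr5:102374876-102375137 (2565), the last found in the shSETD7 list alone.

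FOXA1 peaks at the members were mostly of middle or low rank in their own list. The median percentile of the FOXA1 score, counted within each list, was 44.0 for the 748 vehicle peaks at members, 41.6 for the 1290 shCTL peaks and 30.3 for the 3260 shSETD7 peaks. FOXA1 peaks of 22Rv1 alone without SETD7 had medians of 33.2, 33.0 and 34.7, and those shared with LNCaP without SETD7 had 66.2, 66.9 and 72.9. The FOXA1 peaks at members were not filtered for LNCaP overlap, while those without SETD7 were divided by it. By median, peaks at members ranked above 22Rv1-only peaks without SETD7 in the vehicle and shCTL lists and below them with shSETD7. They ranked below peaks shared with LNCaP in all 3 lists. The part of the unlike filter in these ranks was not tested. In the highest decile of their list were 22 vehicle, 47 shCTL and 102 shSETD7 peaks at members, or 2.94%, 3.64% and 3.13%.

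The low rank in the shSETD7 list came with the members found there alone. Those 2246 had a median shSETD7 score of 35 (percentile 20.2), 13.5% of them in the upper 50% of the list. The lowest score kept was 13 for shSETD7, but 40 for LNCaP DMSO, 48 for GSK2879552 and 47 for the list titled with PFI-2. Absence of these members from LNCaP is thus absence from lists with a higher lowest score. The part of this difference in their 22Rv1-only status was not tested. Members in vehicle and shSETD7 had a median percentile of 51.2, those in both hairpin lists 54.3, and those in all 3 lists 76.7, with a median score of 237. Presence in more lists therefore went with a higher rank. The 22Rv1-only sites without SETD7 showed the same order, with percentiles of 20.2, 45.4, 50.7 and 68.0.

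**Figure D3:**
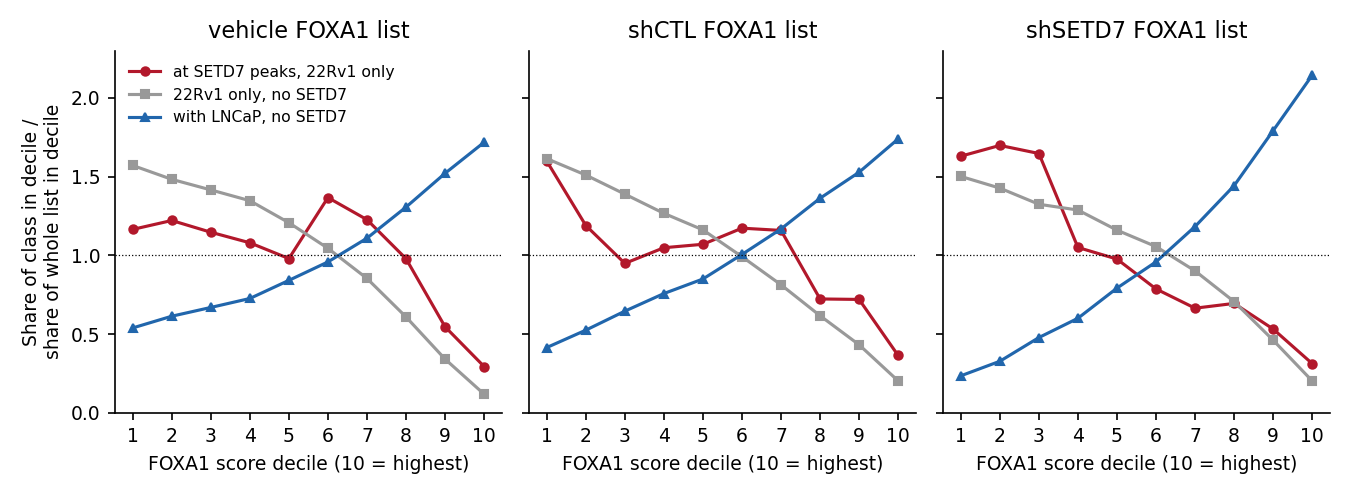
Share of each class of FOXA1 peaks in a score decile, divided by the share of the whole list in that decile (1 means as in the whole list), for the vehicle, shCTL and shSETD7 lists. In the highest decile the peaks at 22Rv1-only SETD7 sites are at 0.294, 0.364 and 0.313 of the list's share, and peaks shared with LNCaP are above 1.7 in each list.

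The 5 members with the highest vehicle FOXA1 scores were all held by all 3 lists. FOXA1 scores reached 3392 in the vehicle list, 84065 in the shCTL list and 35543 in the shSETD7 list, so raw scores are not compared between lists. The first of the 5, chr1:145047818-145048102, had FOXA1 scores of 945 with vehicle, 7276 with shCTL and 7965 with shSETD7. These were at percentiles 97.8, 99.7 and 99.8 of their lists. Its SETD7 score was only 31, and an LNCaP peak lay 47 bp away. The second, chr8:129757499-129757826 (vehicle score 805), overlapped its vehicle FOXA1 peak by 3 bp and lay 8 bp from an LNCaP peak. The third, chr8:98606885-98607255 (804), was 66 bp from one. These 3 thus had an LNCaP peak within 100 bp that did not reach the SETD7 peak. At each of them the shCTL FOXA1 peak ran beyond the SETD7 peak, to 145048522, from 129757060 and to 98607702. Overlap of the LNCaP peaks with these FOXA1 peaks was not examined, so FOXA1 sharing with LNCaP cannot be told there. The other two, chr4:121177079-121177330 (790) and chr2:91639708-91640162 (716), had their nearest LNCaP peaks at 13280 and 15971 bp.

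The highest FOXA1 scores in the hairpin lists were at chr3:54433574-54434278, with 208 with vehicle, 11680 with shCTL and 10613 with shSETD7, and a SETD7 score of 806. This site had its nearest LNCaP peak 26682 bp away, and its overlaps with the hairpin peaks were 551 and 591 bp of a 705 bp SETD7 peak. It was a strong FOXA1 site of the hairpin cells, at percentiles 99.9 of both lists, and at percentile 79.4 of the vehicle list. In the shCTL list the third highest was chr13:23151202-23151533, with a shCTL score of 7272 and a SETD7 score of 756, its nearest vehicle peak at 1712 bp and its nearest shSETD7 peak at 1662 bp. Another in both hairpin lists was chr3:153515274-153515565 (6290 and 7556), with a vehicle peak 2 bp and an LNCaP peak 42 bp away. The rest were the chromosome 1, 8 and 13 sites already named.

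Among members in the shSETD7 list alone the highest shSETD7 scores were 1675 at chr3:23061870-23062310, 1316 at chr8:122068076-122068340 and 1248 at chr8:73065424-73065691. A shCTL peak lay 3, 7 and 54 bp from these 3 SETD7 peaks. At these 3 a shCTL peak thus stood beside the SETD7 peak without overlapping it. Their shSETD7 FOXA1 peaks overlapped the SETD7 peak by 76, 17 and 53 bp and ran beyond it, from 23061350, to 122068855 and from 73064925. The FOXA1 peak at the third also overlapped the left-out SETD7 peak chr8:73064821-73065062, which the shCTL list held. Overlap of the shCTL peaks with these FOXA1 peaks was not examined, so FOXA1 sharing with shCTL cannot be told there. The fourth, chr5:102374876-102375137 (1244), had its nearest shCTL peak at 7618 bp, and the fifth, chr5:78163395-78163652 (1161), at 147 bp. Over all 2246 such members, 126 had a shCTL peak within 200 bp (5.61%) and 287 within 1 kb (12.8%), so for most of them the shCTL list was empty for 1 kb on either side.

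Members in vehicle and shCTL without shSETD7, 54 in all, had modest FOXA1 scores. The highest shCTL scores were 526 at chr14:19018691-19019645, 387 at chrX:61758000-61758903 and 318 at chr10:42666427-42666956. In the vehicle list the same sites scored 44, 88 and 64. All 3 had high SETD7 scores, of 788, 336 and 1469. The next 2, chr5:17584130-17584597 (shCTL score 243) and chr3:54756539-54757066 (237), had SETD7 scores of 36 and 31, and the latter was 6 bp from an shSETD7 peak. None of the 54 was in the highest decile of shCTL or of vehicle FOXA1 scores. Of the 54, 52 were on chromosomes with 2 arms or on chromosome 21. Among those 52, 20 lay within 1 Mb of their chromosome's widest stretch with no peak in any list (38.5%, 26.5 to 52.0). The share was 9.08% over all members on these chromosomes.

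For members held by 2 lists, the FOXA1 ranks could be set side by side. At the 850 members in both hairpin lists the median percentile was 50.05 within the shCTL list and 66.8 within the shSETD7 list. At 13424 22Rv1-only sites without SETD7 in both hairpin lists the medians were 47.3 and 57.8. At the 433 members in vehicle and shCTL they were 57.7 within the shCTL list and 56.9 within the vehicle list, and at 13008 such sites without SETD7 they were 51.3 and 46.3. The lists differ in length, so these percentiles give positions within each list and no change between lists is read from them.

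Members in the shCTL list were more often also in the shSETD7 list than 22Rv1-only shCTL sites without SETD7, by unlike counts. At a member the shCTL and shSETD7 peaks had only to overlap the same SETD7 peak. Elsewhere they had to fall in 1 merged FOXA1 site. The part of this difference in the shares was not tested. Of the 1277 members in the shCTL list, 850 were in the shSETD7 list, or 66.6% (63.9 to 69.1), against 34.2% of 22Rv1-only shCTL sites without SETD7 (33.7 to 34.7). In the upper 50% of shCTL scores the shares were 80.8% (77.2 to 83.9) and 52.1% (51.2 to 52.9), and in the lower 50% they were 56.5% and 26.3%. The vehicle list held 33.9% of the same 1277 members (31.4 to 36.5) and 33.1% of the sites without SETD7 (32.7 to 33.6), intervals that overlap. In the upper 50% of shCTL scores the vehicle list held 50.4% of the members (46.1 to 54.6) and 56.3% of the other sites (55.4 to 57.2), so there the members had the lower share. In the lower 50% it held 22.2% and 22.9%. Both shares rest on the shCTL list, and the comparison of hairpins has 1 library on each side.

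SETD7 peaks at these sites were wider than those without FOXA1. The median width was 393 bp among members (quartiles 297 and 547), 472 bp among sites of both lines and 314 bp among SETD7 peaks without FOXA1. A wider peak overlaps more by construction. Width also went with score, as all SETD7 peaks had a median of 300 bp in the lowest score decile and 403.5 bp in the highest. Within the highest score decile, the share of SETD7 peaks that were members was 20% at widths of 241 to 272 bp (16.0 to 24.6) and 46.8% at 576 bp or more (43.2 to 50.5). In the lower deciles it was 8.77% (8.08 to 9.51) and 28.0% (26.0 to 30.2). At each width the highest decile held the larger share, so a gradient with width was present in both score groups and a step with score at every width. Among members, those in all 3 lists had the widest SETD7 peaks (median 486 bp) and those in the shCTL list alone the narrowest (344 bp).

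**Figure D4:**
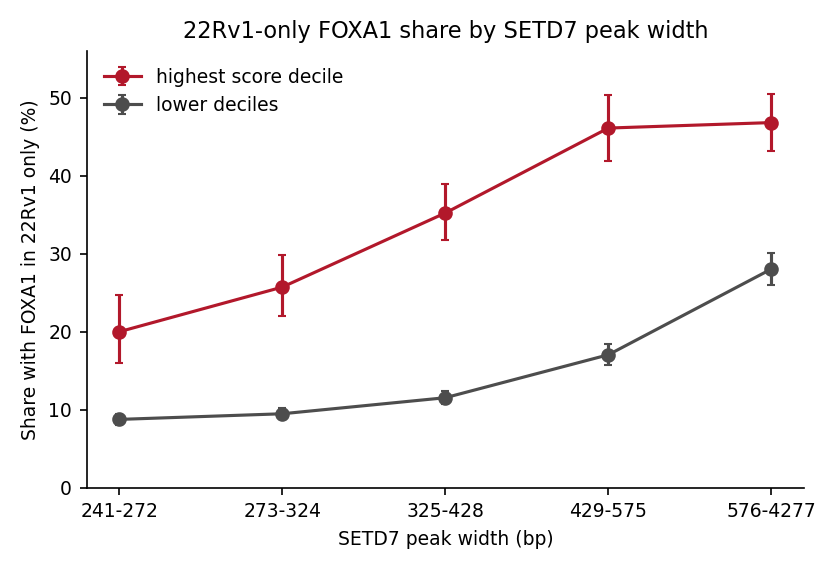
Share of SETD7 peaks (%) with FOXA1 in 22Rv1 only against the width of the SETD7 peak (bp), for the highest decile of SETD7 scores and for the lower deciles together. Whiskers are 95% Wilson intervals; both lines climb with width, from 20% to 46.8% and from 8.77% to 28.0%.

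The peaks of the 2 proteins lay closer together in the hairpin lists than in the vehicle list. The median distance between the midpoints of the SETD7 peak and its FOXA1 peak was 110 bp with shSETD7, 102 bp with shCTL and 154 bp with vehicle. Reciprocal overlap of 50% was met by 59.1%, 53.6% and 25.3% of the pairs. For members with a SETD7 score of 500 or more it was met by 100 of 108 pairs with shSETD7 (92.6%, 86.1 to 96.2), 98 of 111 with shCTL (88.3%, 81.0 to 93.0) and 6 of 24 with vehicle (25%, 12 to 44.9). The median distance between midpoints at these strong SETD7 peaks was 25.25 bp with shSETD7, 25.5 bp with shCTL and 229.75 bp with vehicle. Median FOXA1 peak width was 262 bp in the vehicle list, 340 bp in the shCTL list and 357 bp in the shSETD7 list, and its part in the reciprocal overlap was not tested.

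Some members were close to the threshold of the rule. In 37 members the largest overlap with FOXA1 was 10 bp or less, the smallest being 1 bp at chr1:230611466-230611904, chr10:83469285-83469572 and chr4:54114752-54115000, all 3 in the shSETD7 list alone. An LNCaP peak was within 100 bp of 85 members, and abutted chr7:29409550-29409840. It was 1 bp from chr8:141007537-141007814 and 2 bp from chr1:28348688-28348955. Just outside the rule, 17 SETD7 peaks were left out for an LNCaP overlap of 10 bp or less, with 1 bp at chr21:11017203-11017468 and chr8:73064821-73065062 and 2 bp at chr10:22697117-22697437.

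Along the genome, members were found on all 23 chromosomes and were most numerous on the long arm of chromosome 1. Arms were divided at the widest stretch with no peak in any of the 7 lists, and chromosomes 13, 14, 15, 21 and 22 were kept whole. Arm 1q held 987 members, 25.9% of all, followed by 8q with 314, 3q with 303, 12q with 246 and 7q with 244. Per Mb of arm, 1q held 9.25 members, against 2.49 to 3.16 for the next 4 and 0.510 for 1p. The SETD7 peaks themselves were dense there, at 44.8 per Mb, and members were 20.6% of the SETD7 peaks on 1q (19.5 to 21.8) against 12.7% on 1p (10.0 to 15.9). Both the number of SETD7 peaks and the share with 22Rv1-only FOXA1 were thus higher on 1q than on 1p. The shSETD7 list also held more FOXA1 peaks there, at 49.5 per Mb on 1q and 21.1 on 1p. The part of this density in the share was not tested.

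On 1q, 713 of the 987 members, or 72.2%, were in the shSETD7 list alone, and 920 were in that list at all. The shCTL list held 222 and the vehicle list 135. Of the 22Rv1-only FOXA1 sites of 1q without SETD7, 30.9% were in the shSETD7 list alone. Arms 8q, 3q, 12q and 7q had 61.9% to 67.1% of their members in the shSETD7 list alone, against 26.9% to 29.4% of their other sites. Each of the 5 arms therefore had the larger share among members, which were counted by overlap with the SETD7 peak and not as merged sites. The short arm of chromosome 8 differed from its long arm, with 55 members, 6.93% of its SETD7 peaks (5.36 to 8.91) against 14.7% on 8q (13.3 to 16.3), and 34.5% of them in the shSETD7 list alone. The shSETD7 list held 17.7 FOXA1 peaks per Mb on 8p and 31.6 on 8q.

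**Figure D5:**
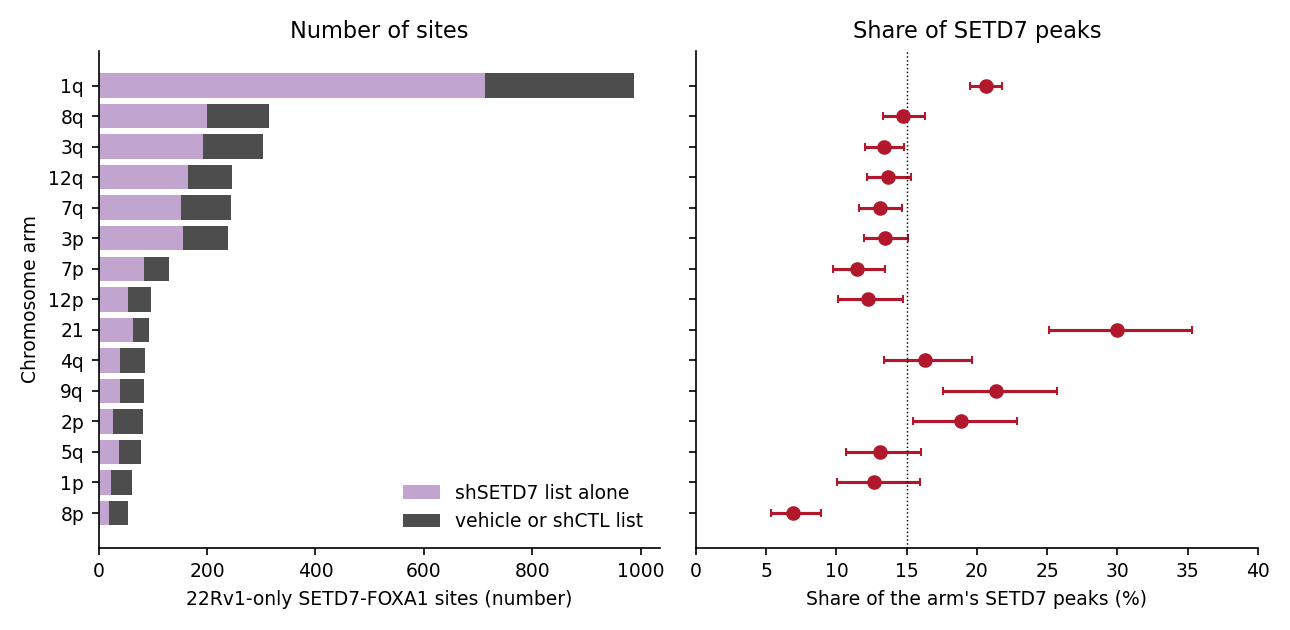
Left, number of 22Rv1-only SETD7 and FOXA1 sites on the 15 arms with most of them (chromosome 21 whole), divided into those in the shSETD7 list alone and those in the vehicle or shCTL list. Right, the share of each arm's SETD7 peaks (%) that they make up, with 95% Wilson intervals and a dotted line at 15% for the genome; among these, 1q leads in number (987) and chromosome 21 in share (30.0%).

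Chromosomes 1, 3, 7, 8 and 12, set apart from earlier results of these data for their many SETD7 peaks, held 70.2% of the members (68.8 to 71.7) and 70.2% of all SETD7 peaks (69.7 to 70.8). The equal shares covered unequal parts. In the highest SETD7 decile members were 29.1% of SETD7 peaks on the 5 chromosomes (26.8 to 31.5) and 45.7% elsewhere (43.0 to 48.5). Below it they were 13.8% (13.2 to 14.3) and 8.82% (8.15 to 9.55), so the order was the reverse. Of the members in the shSETD7 list alone 78.1% were on the 5 chromosomes (76.4 to 79.8), and of those in the shCTL list alone 50.7% (45.6 to 55.7). For comparison, 44.3% of 22Rv1-only FOXA1 sites without SETD7 were there.

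By share of its SETD7 peaks, chromosome X came first, with 54 of 135 (40%, 32.1 to 48.4), and chromosome 21 second, with 92 of 307 (30.0%, 25.1 to 35.3). On X only 13 of the 54 were in the shSETD7 list alone (24.1%). On chromosome 21 it was 64 of 92 (69.6%). Of the chromosome 21 members, 80 lay before that chromosome's widest peak-free stretch, where they were 38.5% of SETD7 peaks (32.1 to 45.2), and 12 after it, where they were 12.1% (7.07 to 20). The share on chromosome 21 therefore rested on its first part. On Xq, 16 of 37 members lay within 1 Mb of the widest peak-free stretch of chromosome X (43.2%, 28.7 to 59.1).

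A similar closeness to the peak-free stretch in the middle of chromosomes was seen elsewhere. Over chromosomes with 2 arms and chromosome 21, 334 of 3677 members lay within 1 Mb of that stretch, or 9.08% (8.20 to 10.1), against 2.68% of SETD7 peaks without FOXA1 (2.46 to 2.91) and 1.65% of 22Rv1-only FOXA1 sites without SETD7. It was 22.7% for members of the highest SETD7 decile (20.2 to 25.5) and 4.33% for the other members (3.63 to 5.16). SETD7 sites with FOXA1 in both lines had 27.2% there (24.2 to 30.5), more than the members. The 5 highest SETD7 scores among members of all 3 lists were chr8:46849027-46851234 (1533), chrX:61718461-61719889 (1447), chr8:43826804-43828399 (1169), chr4:49324731-49325986 (1127) and chr2:89871674-89872885 (1012), of which the first 4 were within 1 Mb. The part of this position in the SETD7 and FOXA1 scores was not tested. Without the SETD7 peaks within 5 Mb of the stretch, 86.3% of members were in the shSETD7 list, close to the 85.4% for all.

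In windows of 1 Mb, members fell in 1214 windows and 550 of these held 1 member. The fullest was 142 to 143 Mb of chromosome 1, with 38 members of 81 SETD7 peaks, followed by 145 to 146 Mb of chromosome 1 with 36 of 82 and 10 to 11 Mb of chromosome 21 with 36 of 93. Next were 148 to 149 Mb of chromosome 1 with 32 of 74 and 68 to 69 Mb of chromosome 9 with 27 of 48. The shSETD7 list held 36, 36, 33, 27 and 26 of these members, the shCTL list 12, 9, 7, 15 and 13, and the vehicle list 7, 3, 3, 4 and 9. In each of the 5 windows the shSETD7 list thus held the most and the vehicle list the fewest.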

How the data were processed

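The series holds 7 chromatin immunoprecipitation libraries, 1 per group, with 1 deposited peak list each. Build hg19 and the tools MACS2 2.1.4, SAMtools 1.9, BWA 0.7.17-r1188 and FastQC 0.11.9 are named per the submitters' processing notes. For thresholds of peak calling and use of an input library, nothing is given in the sources used here. Each deposited peak has a score, a whole number of the authors' own that has no stated definition and so served only for ranking, describing or filtering inside its own list. Scores began at 13 in every 22Rv1 list and between 40 and 48 in LNCaP, and depth is unknown.

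Peaks on chromosomes 1 to 22 and X were overlapped by at least 1 bp with Python 3.11.15, numpy 2.4.6 and pandas 2.3.3. Bedtools 2.31.1 gave the same 3809 members. The code for the rule was run on simulated SETD7 peaks placed clear of its threshold, so near-threshold overlaps were not simulated. The intervals were checked against a second calculation. Deciles and percentiles use mean ranks within a list, and where a SETD7 peak met several FOXA1 peaks of a list the highest score was taken. Shares have 95% Wilson intervals. No test was run, since each group is 1 library. Named sites were the 10 highest SETD7 scores, the 5 highest FOXA1 scores per list, the 5 highest of 3 list patterns, the 5 fullest windows and arms, and 3 sites on each side of a threshold. Members, lists and the 5 chromosomes were chosen with earlier results of these data known. Gene names and sequences need an hg19 reference and were not used here.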

Additional observations from a re-analysis of the deposited data

How the results depend on the processing

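Over 3 main results, 26 of 32 alternatives moved the value out of the counting interval of the reported one; all are shares and cannot change sign. The share of SETD7 peaks with FOXA1 in 22Rv1 only (15%) was 10.1% when 50% reciprocal overlap was required, 11.6% when midpoints had to lie within 200 bp, 20.9% when peaks up to 1 kb apart counted, 13.6% with no LNCaP peak within 1 kb, 8.37% for the higher-scoring 50% of every list, 19.5% for the higher-scoring 50% of the SETD7 list, 14.5% with FOXA1 lists of equal length, 16.0% with the LNCaP DMSO list only, 12.4% without the highest SETD7 decile and 13.6% without peaks within 5 Mb of centromeric stretches, an alternative chosen after seeing the data. The share of members in the shSETD7 list (85.4%) was 83.4%, 82.1% and 76.9% under the 3 overlap rules, 76.1% and 84.0% for the higher-scoring 50% of every list and of the SETD7 list, 89.96% with equal lengths, 88.3% without the highest decile and 76.6% without chromosomes 1, 3, 7, 8 and 12. The share of members on those chromosomes (70.2%) was 62.8%, 66.9% and 73.7% under the overlap rules, 54.4% and 64.3% for the higher-scoring 50%, 68.5% with the DMSO list only, 80.2% without the highest decile and 77.3% away from centromeric stretches. A looser rule or a shorter list alters these shares by its construction, and no other cause was tested. Of the other 5 results, 36 of 54 alternatives moved, the vehicle share (18.9%) from 9.76% to 36.8% and the share in all 3 lists (9.95%) from 4.78% to 19.96%. In all 11 alternatives the shSETD7 list held the largest share of members. Unknown depth limits every statement of absence, and absence from LNCaP also rests on lists with a higher lowest score. No paired analysis was possible because each group has 1 library.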

Other observations

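Members that the vehicle FOXA1 list did not hold were closer to its peaks than SETD7 peaks without any FOXA1 peak. Of the 3090 members without a vehicle peak, 11.9% had one within 1 kb and 56.1% within 10 kb, with a median distance of 8318 bp. Of the SETD7 peaks without FOXA1, 5.53% had one within 1 kb and 45.4% within 10 kb, with a median of 11514 bp. Median distances to the nearest LNCaP peak were alike, at 9527 bp for members and 9629 bp for SETD7 peaks without FOXA1, but at short range the classes differed, with 3.12% and 1.12% within 200 bp and 9.32% and 6.98% within 1 kb. No test was made of these distances.

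The spacing of members is given as a description only, since SETD7 peaks are themselves dense where members lie and no reference spacing was computed. The nearest other member was within 10 kb for 807 of them (21.2%) and within 100 kb for 2322 (61.0%), with a median of 56860 bp, and 161 had another member within 1 kb. The rule gave neighbouring SETD7 peaks a place each, so such members are not independent sites.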
